A study of Mus musculus with 17 samples.

Results

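B cells of the germinal center (GCB) and plasma cells of the bone marrow (BMPC) from Dnmt3-sufficient (C) mice were compared by ATAC-seq, in which a transposase cuts accessible chromatin and attaches sequencing adapters to it. The comparison rests on 5 of the 17 samples of the series, 2 C GCB libraries and 3 C BMPC libraries, taken by cell type and genotype from the sample labels, and 16 of the 17 samples had values in the table. All these mice carried floxed alleles and no Cre (Cd19wt/wtDnmt3afl/flDnmt3bfl/fl) on the B6;129S4-Dnmt3atm3.1Enl Dnmt3btm5.1Enl/Mmnc background, so C is a floxed control and not a wild type strain. Mice were 8–12 weeks old, and cells were collected 30 days after immunization with the protein phycoerythrin (PE) in complete Freund's adjuvant.

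GCB were B220+ Fas+ GL7+ PE+ cells sorted from lymph node, and each library held a pool of 2 mice, female for library 1 and male for library 2. BMPC were CD138+ cells of any antigen specificity sorted from bone marrow, 1 female mouse per library. Each library was made from 3000–5000 cells. Tissue, antigen gate and pooling went with the cell type and cannot be told apart from it. The Dnmt3-deficient (KO) libraries set beside them carried Cd19cre, which drives Cre in the B cell lineage, with the same floxed alleles, and numbered 2 nB (naive B cells), 4 GCB and 2 BMPC.

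Reads in regions numbered 2273600 and 2134829 in C GCB libraries 1 and 2, and 7689136, 5480680 and 6422265 in C BMPC libraries 1, 2 and 3. Values are RPPM, the reads of a region scaled to 1000000 reads in all regions of its library, so 3 reads, taken as the floor, were worth 1.32 and 1.41 RPPM in C GCB and 0.390–0.547 RPPM in C BMPC. The floors concern counting only, and reads had no molecular identifiers. Standard errors (SE) given below come from the limma fit and reflect the spread between libraries. The mitochondrial chromosome took 8.60% and 8.76% of the reads in C GCB and 2.56–3.06% in C BMPC, and its part in the results below was tested only by rescaling to the other reads.

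In the germinal center, B cells divide, mutate their antigen receptor genes and compete for help from follicular T cells, a state held by the repressor Bcl6 on top of the B cell program of Pax5, Ebf1 and Bach2. Plasma cells leave that state when Irf4 and Blimp-1 (encoded by Prdm1) silence Bcl6, Pax5 and Ciita, and Xbp1 enlarges the secretory apparatus. Accessible regions away from transcription starts are commonly enhancers bound by such factors.

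Sequences are shown for 3 closed and 4 opened regions at genes of these programs, with the letters of 11 short motif cores in capitals. Each was the largest change at its gene, and windows of other genes that met this rule are not shown. Each run is the 300 bases about the middle of the region on the forward strand of mm9 (NCBIM37). The cores are CAGCTG (E2A), GGAAGT (PU.1), GAAAC (IRF4), ATGCAAAT (Oct-2), GGAANTGAA (ETS-IRF composite), GAAANNGAA (IRF pair), TGANTCA (AP-1), TGTGGTT (RUNX), GGAAAA (NFAT), TGACGTG (XBP1 and ATF) and TATTTATA (MEF2-like), searched on both strands. GAAAC and GAAANNGAA can share letters.
Bcl6, closed, chr16:24134822-24135121: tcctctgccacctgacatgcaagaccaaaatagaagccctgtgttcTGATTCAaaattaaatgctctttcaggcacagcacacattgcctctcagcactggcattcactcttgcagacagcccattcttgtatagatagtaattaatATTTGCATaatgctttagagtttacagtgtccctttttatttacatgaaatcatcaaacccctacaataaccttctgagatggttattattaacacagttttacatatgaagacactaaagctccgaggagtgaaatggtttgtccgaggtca
Pax5, closed, chr4:44693254-44693553: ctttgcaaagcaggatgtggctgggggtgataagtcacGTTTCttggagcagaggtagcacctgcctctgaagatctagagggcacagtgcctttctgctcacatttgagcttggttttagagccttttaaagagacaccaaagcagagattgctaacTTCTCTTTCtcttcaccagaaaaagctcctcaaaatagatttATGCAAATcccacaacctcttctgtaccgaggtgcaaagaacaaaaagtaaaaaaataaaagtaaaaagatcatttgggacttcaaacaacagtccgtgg
Cxcr4, closed, chr1:130479917-130480216: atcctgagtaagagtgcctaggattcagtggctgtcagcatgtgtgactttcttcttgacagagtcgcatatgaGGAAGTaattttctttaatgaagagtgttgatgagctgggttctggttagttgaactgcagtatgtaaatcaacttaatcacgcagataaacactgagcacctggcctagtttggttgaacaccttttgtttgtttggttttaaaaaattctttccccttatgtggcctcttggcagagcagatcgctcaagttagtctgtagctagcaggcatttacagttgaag
Prdm1, opened, chr10:44120406-44120705: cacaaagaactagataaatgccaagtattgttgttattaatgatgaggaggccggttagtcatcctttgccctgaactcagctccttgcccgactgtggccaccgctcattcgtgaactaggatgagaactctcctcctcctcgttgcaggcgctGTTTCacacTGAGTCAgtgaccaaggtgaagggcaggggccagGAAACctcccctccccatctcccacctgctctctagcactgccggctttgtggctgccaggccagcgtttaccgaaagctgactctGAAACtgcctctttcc
Xbp1, opened, chr11:5426590-5426889: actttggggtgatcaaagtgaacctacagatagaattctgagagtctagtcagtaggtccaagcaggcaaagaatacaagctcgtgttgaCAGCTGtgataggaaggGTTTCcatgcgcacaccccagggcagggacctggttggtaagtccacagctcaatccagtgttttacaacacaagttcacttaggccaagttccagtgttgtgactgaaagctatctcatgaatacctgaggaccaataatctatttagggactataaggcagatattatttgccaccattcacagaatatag
Sdc1, opened, chr12:8836203-8836502: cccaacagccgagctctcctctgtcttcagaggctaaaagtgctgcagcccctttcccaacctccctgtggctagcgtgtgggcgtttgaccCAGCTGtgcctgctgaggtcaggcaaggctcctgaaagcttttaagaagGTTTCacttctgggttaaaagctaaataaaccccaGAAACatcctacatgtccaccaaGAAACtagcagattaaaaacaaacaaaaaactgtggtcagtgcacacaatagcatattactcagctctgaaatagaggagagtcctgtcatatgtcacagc
Tram2, opened, chr1:21085284-21085583: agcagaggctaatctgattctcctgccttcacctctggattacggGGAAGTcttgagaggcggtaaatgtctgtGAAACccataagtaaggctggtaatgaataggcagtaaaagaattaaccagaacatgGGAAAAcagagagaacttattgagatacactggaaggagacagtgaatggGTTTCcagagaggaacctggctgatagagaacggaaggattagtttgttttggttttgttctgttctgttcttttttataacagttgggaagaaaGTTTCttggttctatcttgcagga

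The Bcl6 window held 1 match of ATGCAAAT on the reverse strand and 1 of TGANTCA, and the Pax5 window held 1 match each of ATGCAAAT, GAAAC and GAAANNGAA. A single GGAAGT stood in the Cxcr4 window. Among the opened windows, those of Prdm1, Sdc1 and Tram2 held 3 matches of GAAAC each, and those of Xbp1 and Sdc1 held 1 CAGCTG each. Windows not shown differed from this. The closed S1pr2 window held 3 GAAAC, and the closed Bach2 window 2 GAAAC and 1 CAGCTG. The opened Ell2 window held 2 GAAAC and the opened Jchain window 0 matches of any core. The windows shown therefore do not stand for all opened or closed regions. A match describes letters and is not a bound site.

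From C GCB to C BMPC, 7474 of 66177 regions opened (11.3%) and 12636 closed (19.1%), so 30.4% of all regions were called. Calls came from a limma fit of log2(RPPM + 1) in all libraries, with Benjamini-Hochberg adjustment over all regions, and needed both an adjusted p no higher than 0.01 and a log2 change of 1 or more in size. Closed regions fell from a median of 8.82 RPPM to 1.27 RPPM and opened regions rose from 3.85 to 16.1 RPPM, while the median change over all regions was -0.06. Decreases were the larger in size, with 316 closed and 18 opened regions past 16-fold on this scale. In 5098 closed regions (40.3%) all 3 C BMPC libraries were at or under 1.41 RPPM, the highest floor of the 5 libraries, against 854 opened regions (11.4%) for both C GCB libraries. Opened regions were also wider, with a median of 702 bp against 472 bp for closed and 497 bp for uncalled regions. Widths come from a union of peaks called per sample, and C BMPC libraries were deeper than C GCB libraries. The part of depth and level in this difference was not tested.

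**Figure D1:**
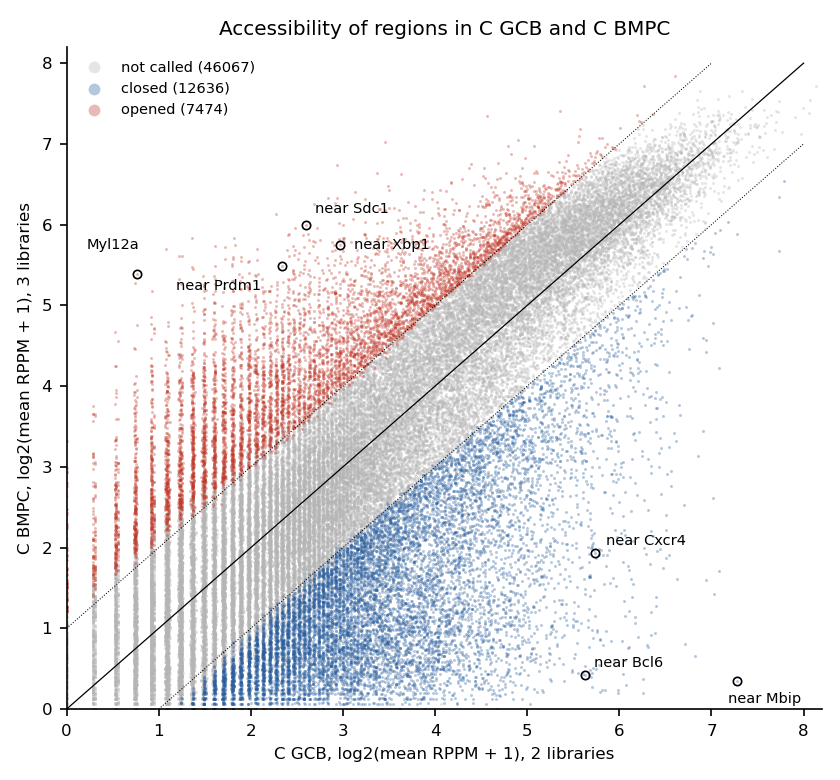
Mean accessibility of each region in C GCB (horizontal axis, 2 libraries) and C BMPC (vertical axis, 3 libraries), both as log2(mean RPPM + 1), with opened regions in red, closed in blue and uncalled in grey, a solid line of equality and dotted lines at a 2-fold change. The 12636 closed regions spread to the bottom edge, where C BMPC had few or no reads, more than the 7474 opened regions spread to the left edge; mitochondrial and other regions past 8.2 lie outside the axes.

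The 2 C GCB libraries correlated with each other at a Spearman coefficient of 0.922 and the 3 C BMPC libraries at 0.964–0.973, against 0.659–0.680 between the cell types. These values describe all regions and share the depth of each library. C BMPC library 1, the deepest, had 5.41% of regions at or under its floor, against 11.7% and 14.8% in the other C BMPC libraries. Quantile normalization made the called regions 50.7% closed, against 62.8% as deposited, and moved the median change over all regions from -0.06 to 0.09.

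The KO libraries, which enter no C mean but share the estimate of the spread, gave 8013 opened regions (12.1%) and 13138 closed regions (19.9%) from KO GCB to KO BMPC. Of the regions opened in C, 5363 were also opened in KO, which is 71.8% of the C and 66.9% of the KO regions. Closing was shared by 10269 regions, 81.3% of the C and 78.2% of the KO regions, and 4 regions were called in opposite directions. A fit of the 5 C libraries alone kept 7337 of the 7474 opened and 12095 of the 12636 closed calls. The difference between the C and KO changes was called in 0 of 66177 regions by limma at the same limits, while 5509 of them had an unadjusted p under 0.05. With 2 to 4 libraries per group, this does not show that the changes were equal. The study reported regions that differ in accessibility between Dnmt3-deficient and Dnmt3-sufficient BMPC, a direct comparison not made here. Of the regions named by rule, 61 were called, counting a region under each rule that named it, and all 61 had the same direction in KO, as did 99.1% of all opened and 99.4% of all closed regions.

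Closing was more frequent in regions farther from a transcription start. Of 11672 regions on a transcription start, 11.2% opened and 5.21% closed, with a median log2 change of 0.33. The closed share was 13.9% under 1 kb from a start, 19.1% at 1 to 10 kb, 22.3% at 10 to 50 kb, 26.8% at 50 to 100 kb and 31.7% at 100 kb and over. The opened share stayed between 7.48% and 12.8% over these classes. Regions outside genes closed in 23.6% of cases and opened in 10.1%, against 16.8% and 11.9% of regions in introns. At matched levels in the mean of both groups, the closed share on a start against 10 kb or more from one was 19% against 27.6% at 2 to 5 RPPM, 20.6% against 29.5% at 5 to 10 RPPM and 11.6% against 29.3% at 10 to 20 RPPM. At 20 to 50 RPPM it was 2.55% against 22.0%, while 15% and 21.1% opened, or 7.40% and 16.8% under quantile normalization. These shares are descriptions without a test. Under quantile normalization the median change was 0.16 on a start and -0.27 at 100 kb and over, and only the classes between 1 and 50 kb changed sign.

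**Figure D2:**
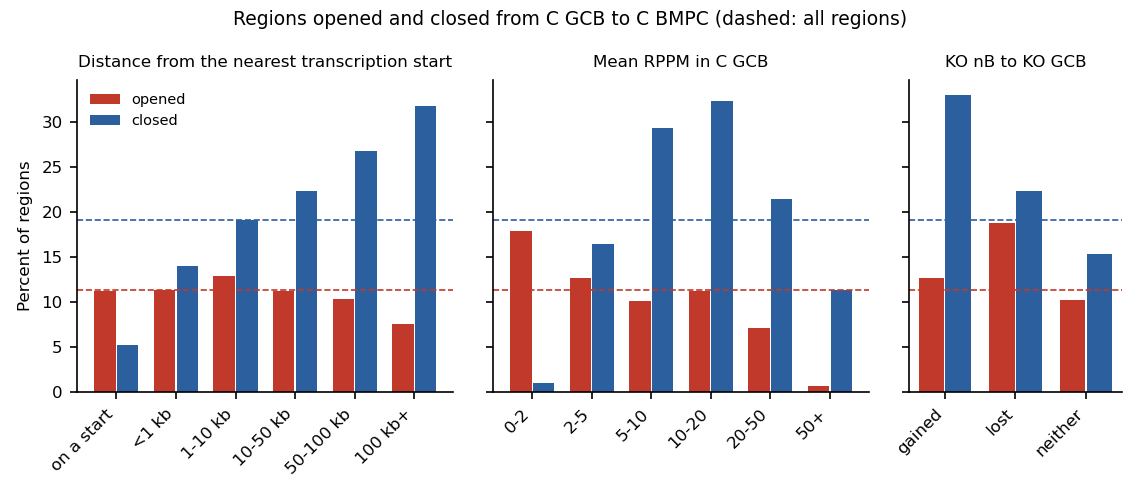
Percent of regions opened (red) and closed (blue) from C GCB to C BMPC by distance from the nearest transcription start, by mean level in C GCB and by the change from KO nB to KO GCB, with dashed lines at the share over all regions. The closed share rises from 5.21% on a start to 31.7% at 100 kb and over, and from 15.3% of regions neither gained nor lost to 33.0% of regions gained on entry to the KO GCB state.

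The history of a region from nB to GCB was read in KO libraries only, since C GCB is part of the comparison itself. Of 12205 regions gained from KO nB to KO GCB, 4029 closed in C BMPC (33.0%) and 1540 opened (12.6%). Of 5188 regions lost on that step, 22.3% closed and 18.8% opened, and of 48784 regions with neither call 15.3% closed and 10.2% opened. Among regions with 20 to 50 RPPM in C GCB, 59.7% of the gained regions closed, against 14.8% of those with neither call and 12.7% of those lost. In the same band of level 30.9% of the lost regions opened in C BMPC, against 2.30% of the gained regions, but under quantile normalization these shares were 11.7% and 0.976%. The level in C GCB is also part of the change, so these bands are not independent of it. Of the 12636 closed regions, 7450 had neither call.

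Germinal center genes had the most closing of the lists examined. Of their 212 regions 92 closed (43.4%) and 11 opened (5.19%), with a median log2 change of -0.84, and 27 of 28 genes had a region. Bcl6, the repressor that holds the germinal center state, closed at 12 of 16 regions. The strongest was 146 kb upstream of its start, at chr16:24134546-24135399 outside genes, shown first among the sequences above. It held 50.6 and 46.4 RPPM in C GCB and 0.650, 0.365 and 0 RPPM in C BMPC. The 2 groups were far apart, with a log2 change of -5.24 (SE 0.31, adjusted p = 1.4e-13 by limma), and C nB averaged 0.519 RPPM there.

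The Bcl6 start itself did not close. Its region at chr16:23988595-23989233 read 18.5 and 21.5 RPPM in C GCB and 35.5, 24.6 and 29.7 RPPM in C BMPC, higher in all 3 BMPC libraries by 0.55 but under the fold limit (adjusted p = 0.012 by limma). The closed regions of Bcl6 lay from -197 kb to 29.5 kb of the start, where negative is upstream.

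Rgs13, a regulator of G protein signaling expressed in germinal center B cells, closed at 9 of 10 regions. Its promoter region at chr1:146025312-146025954 read 41.8 and 49.7 RPPM in C GCB and 0.390, 0.547 and 0.156 RPPM in C BMPC, a log2 change of -5.10 (SE 0.21, adjusted p = 1.3e-16). Il21r, the receptor for the follicular T cell cytokine IL-21, closed at all 12 of its regions, by 1.20 to 3.41 on the log2 scale. Its largest change, at chr7:132742949-132743488, went from 35.2 and 32.8 RPPM to 3.12, 1.46 and 2.49 RPPM.

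Tox (a nuclear HMG-box factor, 10 of 19 regions closed), Cd83 (10 of 18), Lmo2 (8 of 15) and Klhl6 (5 of 9) also closed at many regions. Klhl6 takes part in germinal center formation, and its intronic region at chr16:19972693-19973305 fell from 29.5 and 23.0 RPPM to 0.520, 0.182 and 0.311 RPPM. Not every gene of the list moved this way. S1pr2, the receptor that confines cells to the germinal center, closed at 2 of 4 regions, but its start region read 29.0 and 23.4 RPPM in C GCB and 41.0, 38.7 and 38.3 RPPM in C BMPC. No region was called at 6 of the 27 genes, Mybl1 among them, and the start region of Mybl1 had a log2 change of -0.04 with overlapping groups.

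**Figure D3:**
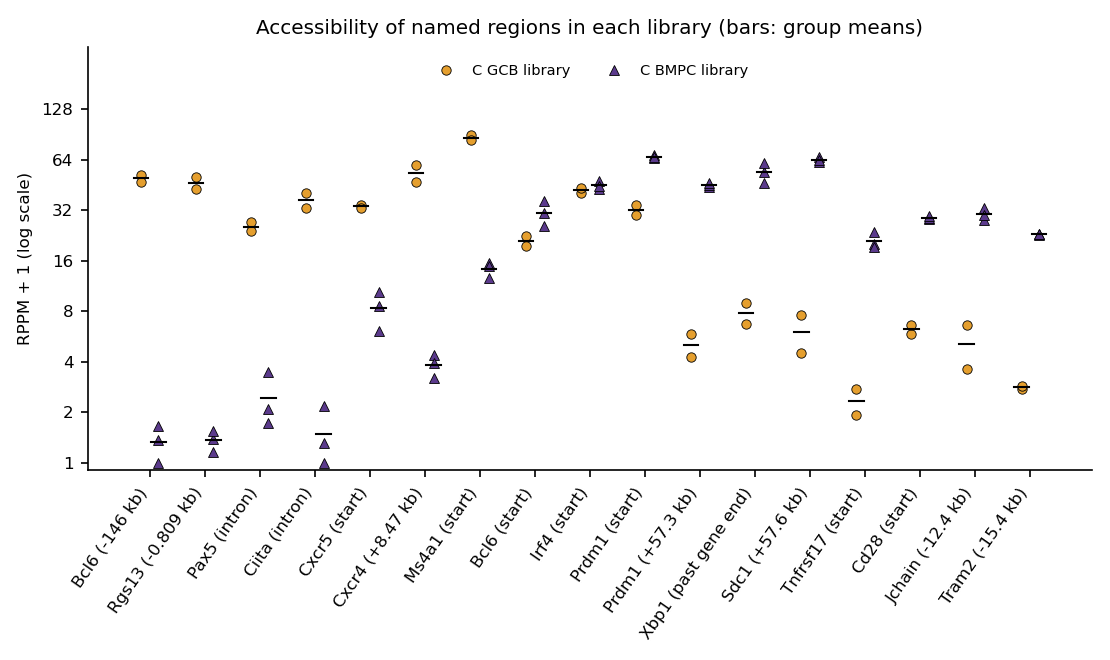
RPPM + 1 on a log scale in each C GCB library (circles) and each C BMPC library (triangles) for 17 regions, with bars at the group means and the place relative to the gene in parentheses. The groups overlap at the Irf4 start and are apart at the closed regions on the left, where the Bcl6 region 146 kb upstream reaches 0 RPPM in 1 C BMPC library, and at the opened regions on the right.

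B cell transcription factors closed at 157 of 668 regions (23.5%) and opened at 66 (9.88%), close to the 19.1% and 11.3% over all regions, with a median of -0.21. Bcl11a, a zinc finger factor of early B cell development, closed at 34 of 48 regions and opened at none, and 25 of these formed an unbroken run of 160 kb. Pax5, the factor that holds B cell identity, closed at 12 of 21 regions and opened at none. Near its start, at chr4:44723526-44724126, Pax5 read 23.8 and 24.8 RPPM in C GCB and 3.77, 2.74 and 2.02 RPPM in C BMPC (log2 change -2.74, SE 0.23, adjusted p = 2e-10). In its intron at chr4:44692962-44693846, shown above, the values went from 22.9 and 26.2 RPPM to 2.47, 0.730 and 1.09 RPPM, against a C nB mean of 32 RPPM.

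Bach2, which represses Prdm1, closed at 17 of 54 regions and opened at 2. Its start region at chr4:32325145-32327186 read 48.4 and 67.5 RPPM in C GCB and 98.2, 103.6 and 98.3 RPPM in C BMPC, a log2 change of 0.80 that missed the fold limit and was 1.03, past it, without C GCB library 2. Foxp1 closed at 21 and opened at 8 of 102 regions, and Ebf1 closed at 8 and opened at 5 of 51. Id3, an inhibitor of E proteins such as E2A, closed at 7 of 13 regions and opened at none. The Id3 start was among them at -1.05, but fell under the fold limit without C GCB library 2 (-0.87) or C BMPC library 2 (-0.98). The same held with reads thinned to the shallowest library (-0.92) and with a pseudocount of 5 RPPM (-0.92). Several genes of the list opened at more regions than they closed. Runx3, a Runt domain factor, opened at 8 and closed at 0 of 21 regions, and Foxo1 opened at 7 and closed at 2 of 30. Mef2c opened at 7 and closed at 5 of 67, and Pou2af1 opened at 3 and closed at 2 of 14. Pou2f2 opened at 2 and closed at 1 of 13, and Klf2 opened at 1 and closed at 0 of 7. Spi1, which encodes PU.1, had 2 regions, neither called.

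**Figure D4:**
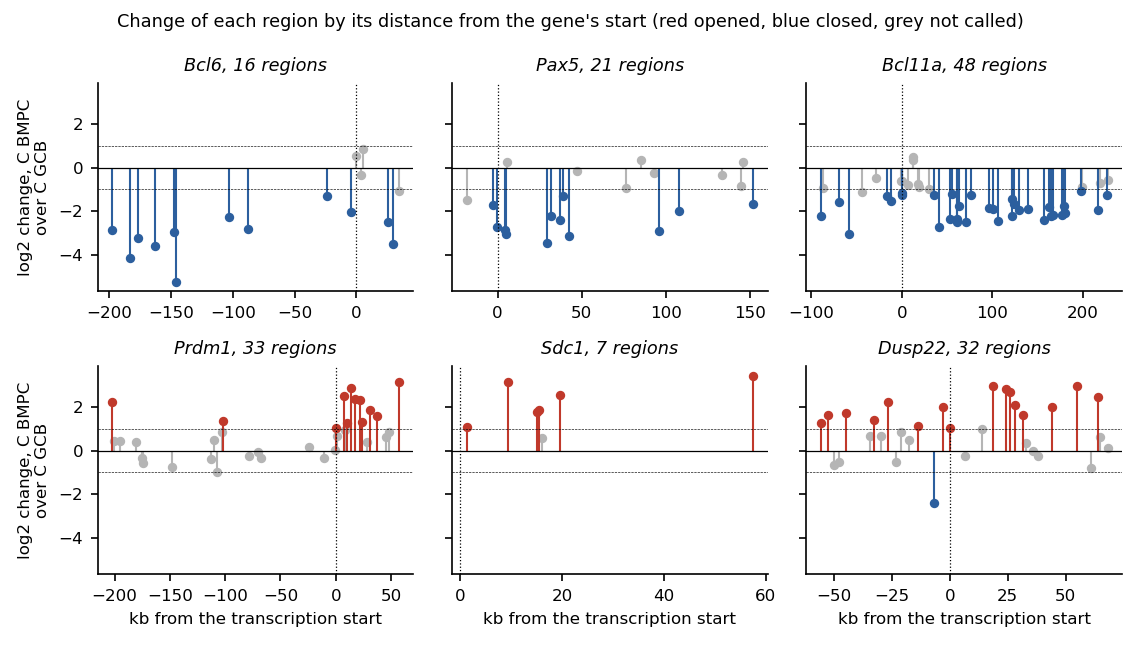
Log2 change from C GCB to C BMPC (vertical axis) of each region annotated to a gene against its distance in kb from the start of the transcript it is annotated to (horizontal axis, negative upstream), with opened regions in red, closed in blue, uncalled in grey, and dashed lines at changes of 1 and -1. Bcl6, Pax5 and Bcl11a hold 12, 12 and 34 closed and no opened regions, while Prdm1, Sdc1 and Dusp22, the gene beside Irf4, hold 12, 6 and 16 opened regions.

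B cell receptor and coreceptor genes closed at 81 of 274 regions (29.6%) and opened at 19 (6.93%). Ms4a1, which encodes CD20, fell at its start from 88.4 and 82.9 RPPM to 14.6, 11.7 and 13.9 RPPM (chr19:11340415-11341463, log2 change -2.60, SE 0.14, adjusted p = 5.5e-14). The start regions of Cd79a and Cd79b, the signaling chains of the receptor, had log2 changes of -0.92 and -0.999, and neither was called. Cd79b read 21.6 and 16.9 RPPM in C GCB and 8.97, 9.12 and 9.03 RPPM in C BMPC, just under the fold limit, and was called at -1.04 by edgeR's quasi-likelihood test (adjusted p = 4.7e-05) and at -1.05 by DESeq2 (adjusted p = 2.3e-05). Bank1, an adaptor of receptor signaling, had the most closed regions of the list, 12 of 35.

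The list of MHC class II and costimulation genes closed at 33 of 83 regions (39.8%) and opened at 3 (3.61%). These 83 are the regions the table annotates to the genes, and 7 of the 9 class II genes have none, so they come mainly from Cd83 (18), Cd86 (15) and Ciita (11). Ciita, the coactivator on which class II expression depends, closed at 7 of 11 regions. Its intronic region at chr16:10495875-10496507 read 32.1 and 39.3 RPPM in C GCB and 1.17, 0 and 0.311 RPPM in C BMPC, a log2 change of -4.69 (SE 0.26, adjusted p = 4.9e-14), with a C nB mean of 33.6 RPPM. Of the regions nearest the starts of the 9 class II genes, 3 closed and 6 were not called. Those of H2-DMb2, H2-Oa and H2-Eb2 closed, with log2 changes of -2.78, -1.94 and -1.36, and the last 2 are not among the 83. The other 6 had changes between -0.52 and 0.09. The region on the start of H2-Aa read 34.3 and 38.9 RPPM against 35.1, 42.9 and 39.4 RPPM, and the groups overlapped. Cd86, a ligand of CD28, closed at 7 of 15 regions, and at its start fell from 21.1 and 17.3 RPPM to 8.58, 6.75 and 7.47 RPPM. Cd83 stands in this list as well as in the germinal center list. Icosl, by contrast, closed at 0 of 8 regions, and Cd40 closed at 1 of 4.

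Receptors that position B cells closed at 53 of 185 regions (28.6%) and opened at 20 (10.8%). Cxcr5, which draws B cells to follicles, fell at its start from 33.4 and 31.9 RPPM to 9.36, 5.11 and 7.63 RPPM (chr9:44334256-44334957, log2 change -2.04, SE 0.19, adjusted p = 1.3e-09). S1pr3, a sphingosine 1-phosphate receptor, closed at 8 of 11 regions, the largest at chr13:51493047-51493724 from 51.0 and 44.5 RPPM to 1.04, 0 and 0 RPPM. Cxcr4, the receptor used in the germinal center dark zone and for homing to bone marrow, changed in both directions, with 17 closed and 5 opened of 40 regions. Its start read 107.3 and 109.6 RPPM in C GCB and 114.3, 122.6 and 130.5 RPPM in C BMPC. The region at chr1:130479737-130480398, shown above, fell from 46.2 and 58.1 RPPM to 3.38, 2.92 and 2.18 RPPM, whereas the region at chr1:130426072-130427167 rose from 5.72 and 6.09 RPPM to 39.7, 37.8 and 46.1 RPPM. Ccr9, a gut homing receptor, opened at 4 of 7 regions, and Itga4, an integrin chain used in bone marrow adhesion, opened at 5 and closed at 2 of 20.

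**Figure D5:**
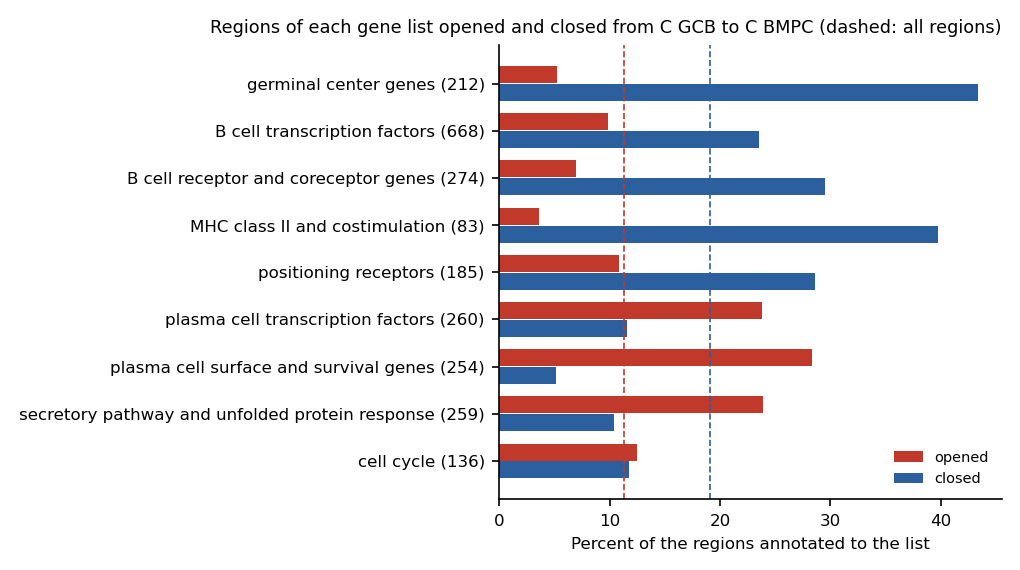
Percent of the regions annotated to each of 9 gene lists (number of regions in parentheses) that opened (red) and closed (blue) from C GCB to C BMPC, with dashed lines at 11.3% opened and 19.1% closed over all regions. Germinal center genes reach 43.4% closed and plasma cell surface and survival genes 28.3% opened, while cell cycle genes have similar shares of both.

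Plasma cell transcription factors opened at 62 of 260 regions (23.8%) and closed at 30 (11.5%), with a median log2 change of 0.28. Prdm1 opened at 12 of 33 regions and closed at none. Its start at chr10:44177922-44179087 read 33.4 and 29.0 RPPM in C GCB and 66.7, 64.8 and 65.4 RPPM in C BMPC, a log2 change of 1.05 (SE 0.15, adjusted p = 1.3e-06). This call is close to the limit, since the change was 0.77 under quantile normalization and 0.95 without C GCB library 2. It was also 0.90 with reads thinned to the shallowest library, and 0.97 both when rescaled to reads outside the mitochondrial chromosome and with a pseudocount of 5 RPPM. The region 57.3 kb downstream, at chr10:44119880-44121233 outside genes, rose from 4.84 and 3.28 RPPM to 42.9, 44.0 and 45.2 RPPM, and C nB averaged 1.52 RPPM there. It was the largest change at Prdm1, with a log2 change of 3.17 (SE 0.30, adjusted p = 1.5e-09).

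Xbp1, the factor of the unfolded protein response, opened at 3 of 7 regions. A region past the end of the gene, at chr11:5426196-5427284, rose from 5.72 and 7.96 RPPM to 45.5, 52.9 and 60.1 RPPM (log2 change 2.79, SE 0.26, adjusted p = 1.4e-09). Its start read 40.5 and 40.8 RPPM in C GCB and 68.5, 80.1 and 77.9 RPPM in C BMPC, a log2 change of 0.88 that was under the fold limit. Bhlhe41 opened at 10 of 19 regions, Mef2a at 9 of 23, Creb3l2, a stress response factor of the secretory pathway, at 8 of 14, and Ell2, an elongation factor for secreted immunoglobulin mRNA, at 5 of 11. Other genes of the list moved the other way or in both directions. Bhlhe40, the paralog of Bhlhe41, closed at 8 of 11 regions, and Ikzf2 closed at 2 of 2. Zbtb20 closed at 6 and opened at 2 of 43, although its start opened (log2 change 1.25, or 0.96 without C BMPC library 1). Atf6 opened at 5 and closed at 4 of 14.

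Irf4 opened at 1 and closed at 3 of 12 regions, and the groups overlapped at its start, at 39.6 and 42.6 RPPM in C GCB against 41.7, 46.9 and 43.8 RPPM in C BMPC. Dusp22, a phosphatase gene that lies 38.0 kb from Irf4 in GENCODE M1, opened at 16 of 32 regions. Of these, 10 lay within 100 kb of the Irf4 start, the nearest at 25.1 kb. The largest, at chr13:30806790-30808023 outside genes, rose from 6.60 and 2.34 RPPM to 41.4, 36.5 and 39.4 RPPM (log2 change 2.99, SE 0.33, adjusted p = 1.9e-08), and its nearest transcription start in the table is that of Irf4. Atg5, an autophagy gene 72.9 kb from Prdm1, opened at 12 of 21 regions, 147–246 kb from the Prdm1 start. Its largest, in an intron at chr10:44024326-44025278, went from 2.2 and 0.937 RPPM to 42.5, 44.2 and 43.4 RPPM. Which gene these regions act on was not tested. The regions were counted for Dusp22 and Atg5 as the table annotates them.

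Plasma cell surface and survival genes had the highest opened share of the lists, 72 of 254 regions (28.3%), with 13 closed (5.12%) and a median of 0.50. Sdc1 encodes CD138, on which BMPC were sorted, and opened at 6 of 7 regions. No region lay within 1 kb of its start. The largest change, 57.6 kb downstream at chr12:8835777-8836929 outside genes, was from 3.52 and 6.56 RPPM to 61.0, 65.1 and 62.4 RPPM (log2 change 3.45, SE 0.23, adjusted p = 1.9e-12). Tnfrsf17, which encodes the survival receptor BCMA, rose at its start from 1.76 and 0.937 RPPM to 19, 22.6 and 18.4 RPPM (chr16:11313498-11314093, log2 change 3.18, SE 0.35, adjusted p = 1.8e-08). In KO the same region changed by 2.03, and the difference from C was not called (adjusted p = 0.51 by limma).

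Cd28, a costimulatory receptor that also sustains plasma cells, opened at all 5 of its regions. Its start at chr1:60802412-60803509 rose from 4.84 and 5.62 RPPM to 27.4, 27.6 and 28.5 RPPM, a log2 change of 2.21 (SE 0.26, adjusted p = 7.1e-08). Igf1r, the insulin-like growth factor receptor, opened at 9 of 22 regions, Enpp1 at 5 of 11, Epcam at 4 of 7 and Tnfrsf13b, the receptor TACI, at 4 of 10. Il6ra, the interleukin 6 receptor chain, opened at 5 and closed at 1 of 12. In the other direction, Bcl2l11, which encodes the pro-apoptotic protein Bim, closed at 4 of 7 regions and opened at none, and its intronic region at chr2:127978290-127979716 fell from 109.1 and 105.9 RPPM to 26.3, 14.6 and 22.0 RPPM.

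Secretory pathway and unfolded protein response genes opened at 62 of 259 regions (23.9%) and closed at 27 (10.4%). Opening was mostly away from starts, with 4 of 40 regions on a start opened and 58 of the 219 others. Over all regions of the table, 11.2% opened on a start and 7.48–12.8% in the distance classes away from one. Of the genes with a region, 16 had opened regions alone, 10 closed alone, 7 both and 17 none called. Edem1 closed at 4 and opened at 3 of 12 regions, and Spcs3 closed at 3 of 7 and opened at none. Ern1, the endoplasmic reticulum stress sensor that splices Xbp1 mRNA, opened at 7 of 14 regions, Txndc5, a protein disulfide isomerase, at 5 of 13 and Pdia4 at 4 of 7. Tram2 opened at 7 and closed at 1 of 11. Jchain, which joins polymeric antibodies, opened at 5 of 8 regions. At 12.4 kb upstream of Jchain, chr5:88969278-88970209 rose from 2.64 and 5.62 RPPM to 26.9, 32.1 and 29.0 RPPM (log2 change 2.62, SE 0.33, adjusted p = 1.5e-07), while its start was already at 19.8 and 25.3 RPPM in C GCB and 25.0, 31.0 and 31.0 RPPM in C BMPC. The C nB mean at that start was 1.05 RPPM. Tram2, a translocation-associated membrane protein, gained a region 15.4 kb upstream at chr1:21084736-21086133, from 1.76 and 1.87 RPPM to 21.8, 22.1 and 22.0 RPPM. The groups overlapped at its start and at that of Derl3, and the start of Mzb1 had a change of 0.31 that missed both limits.

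Cell cycle genes opened at 17 of 136 regions (12.5%) and closed at 16 (11.8%), and 23 of the 38 genes with a region had none called. The order of these counts turned to 15 opened and 18 closed when mitochondrial reads were left out. The start of Mki67, the proliferation antigen, read 49.3 and 59.5 RPPM in C GCB and 44.7, 51.6 and 52.2 RPPM in C BMPC. Among cyclins of the D family, Ccnd3 closed at 6 and opened at 1 of 13 regions, whereas Ccnd2 opened at 2 of 4, its start rising from 3.08 and 7.49 RPPM to 17.9, 18.1 and 17.1 RPPM. Cdkn1b, which encodes the cell cycle inhibitor p27, opened at 2 of 5 regions. Its start read 37.4 and 47.8 RPPM in C GCB and 81.8, 78.1 and 85.6 RPPM in C BMPC, a log2 change of 0.94 that was under the limit and became 1.11, and called, without C GCB library 2.

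Across all 43 key genes of the lists, the region nearest the start was opened in 6, closed in 9 and not called in 28, and 35 of these regions covered the start. Among all regions on a start, 11.2% opened and 5.21% closed. A called region elsewhere or at the start was present for 36 genes, the largest change being a closing in 24 and an opening in 12. Of all 14775 genes with a region, 7156 had none called. The key genes were picked for their known roles, so the split between closing and opening depends on which genes were picked.

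In all, 14775 genes had a region. Opened regions alone were found at 2462 genes, closed regions alone at 3839 and both at 1318. The most opened regions lay at Bcor (24 of 43), a corepressor partner of Bcl6, Arfip1 (24 of 59), Nsmce2 (19 of 32), Atxn1 (18 of 49) and Dusp22. Bcor lies on chrX, for which C GCB library 2 comes from males and the other 4 libraries from females, and over chrX 6.29% of 1638 regions opened and 15.8% closed. The most closed regions lay at Bcl11a (34 of 48), Btg1 (30 of 56), Foxp1 (21 of 102), Sorl1 (20 of 20), and A930011G23Rik and Pag1 (19 of 35 and 19 of 29). Such a rank by count favours genes with many regions, and the closed share of Foxp1 was near the 19.1% over all regions. Sorl1, a sorting receptor, had its 20 regions in a run of 147 kb with no other region between them, and fell by up to 4.07.

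The largest decreases lay at genes outside these lists. A region outside genes annotated to Mbip, chr12:57503729-57505043, fell from 152.6 and 156.5 RPPM to 0.650, 0 and 0.156 RPPM, a log2 change of -6.97 (SE 0.23, adjusted p = 2.9e-18), and C nB averaged 13.5 RPPM. An intronic region of Map2k6, a kinase that activates p38, fell from 117.0 and 107.7 RPPM to 0.910, 0.182 and 0.623 RPPM. Regions at Eef2kmt, Cst11 and Coro1c followed, with changes of -6.07, -5.91 and -5.88. The Cst11 region was already open in C nB, at 62.8 RPPM, whereas those of Map2k6, Eef2kmt and Coro1c averaged 1.22, 0.851 and 1.80 RPPM there.

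The largest increases were smaller and started near the floor. In Myl12a, which encodes a myosin light chain, chr17:71342677-71343265 in an exon with the 3 prime UTR rose from 0 and 1.41 RPPM to 41.6, 39.4 and 42.0 RPPM (log2 change 4.76, SE 0.40, adjusted p = 1.5e-10). Regions at Onecut1, Gpnmb, F13b and Kcnj1 followed, with changes of 4.69, 4.54, 4.52 and 4.49. All of them held at most 2.2 RPPM in both C GCB libraries and at least 35.6 RPPM in every C BMPC library. In KO these regions changed by 3.08 to 4.53.

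Called regions were also compared with their neighbours. Of 13122 pairs of neighbouring called regions less than 50 kb apart, 6684 both closed, 3799 both opened and 2639 differed, so 79.9% were alike. The share of alike pairs to expect without a link between neighbours was not computed. It is not the 62.8% of called regions that closed. No test was made of the 79.9%. The longest opened run was of 11 regions over 31.5 kb annotated to Arfip1, and the next of 10 regions over 49.9 kb annotated to Rbm47. The largest opened region counted for Arfip1 ends that run, and its nearest transcription start is that of Tmem154, 21.6 kb away. For the largest opened region counted for Nsmce2, the nearest start is that of Trib1. Which gene these regions act on was not tested.

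Motif cores differed in frequency between opened and closed regions, counted in 300-base windows and given as descriptions. GGAAGT, the PU.1 core, stood in 40.4% of closed, 23.2% of opened and 30.3% of all windows. ATGCAAAT, the octamer, stood in 7.14% of closed, 3.96% of opened and 3.96% of all, and the ETS-IRF composite GGAANTGAA in 7.02%, 4.02% and 5.24%. The order was the reverse for CAGCTG, the E2A core, with 18.9% of closed, 28.3% of opened and 20.6% of all windows, for GAAAC, the IRF4 core, with 54.3%, 66.0% and 55.4%, and for GAAANNGAA, with 11.8%, 18% and 13.1%. TGTGGTT, the RUNX core, stood in 10.3% of closed and 12.1% of opened windows. TGACGTG, the XBP1 and ATF core, stood in 1.62% of closed, 1.68% of opened and 1.56% of all windows, and TATTTATA in 2.14%, 1.85% and 1.61%. For TGANTCA the shares were 11.1%, 10.0% and 9.19%, and for GGAAAA they were 20.5%, 22.6% and 21.9%.

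Base composition and position moved with these shares. The median GC content was 47.3% in closed and 49.3% in opened windows, and 1302 of 7458 opened but 606 of 12529 closed windows lay on a start. At 1 kb or more from a start, GGAAGT stood in 41.5% of closed and 24.3% of opened windows, CAGCTG in 19.1% and 30.3%, and GAAAC in 55.4% and 72.8%. Within the closed set the shares also differed by history. Of closed windows gained from KO nB to KO GCB, 28.0% held GGAAGT and 11.2% held ATGCAAAT, against 44.9% and 5.48% of closed windows with neither call.

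The labels were checked against marker genes at regions within 1 kb of their starts. Summed over 5 B lineage markers, RPPM was 164.4–170.2 in C GCB and 42.8–44.3 in C BMPC, with 3 of 5 closed, and over the 4 plasma cell markers with a region it was 113.4–115.2 and 196.0–214.4, with 2 opened. The 4 germinal center markers summed to 161.1–178.6 and 144.7–161.0, with 1 closed and 3 not called. Of the markers of other cells, 1 of 7 for T cells had such a region (Lck, summed range 9.84–10.6 and 17.0–18.6), and 2 of 8 for myeloid cells (3.75–4.84 and 11.8–14.0), where Cebpe opened from 3.52 and 2.81 RPPM to 10.4, 11.3 and 12.8 RPPM. No region lay within 1 kb of the starts of Cd3e, Cd4, Lyz2, Csf1r, Mpo or Gata1. Erythroid markers with a region, 3 of 5, summed to 44.4–51.1 and 68.2–78.8, the megakaryocyte marker Itga2b to 16.3–16.4 and 17.0–20.9, and the NK marker Klrb1c to 4.68–4.84 and 2.60–3.58. The part of other bone marrow cells in the opened regions was not tested.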

How the data were processed

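The authors trimmed ATAC-seq reads, aligned them to mm9 with Bowtie and took as regions the union of peaks called per sample with MACS2. The submitters' processing notes name Bowtie 1.1.1, Picard 1.127, MACS2 2.1.0.20140616 and edgeR 3.12.1 with no role, and the study's methods give other versions of Bowtie and MACS2. The deposited values are RPPM, the authors' RPM scaled to reads in peaks, for 66177 regions and 16 libraries. Columns of 9 comparisons by the authors (log2 fold change, log CPM, likelihood ratio, p, FDR and call) were not used, and 1 KO BMPC sample was not analysed here. Dividing by the smallest step gave whole reads for 100% of values (tolerance 0.001 reads).

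From the deposited RPPM, log2(RPPM + 1) was fitted with limma 3.58.1 in R 4.3.3, with 1 mean per group over all 16 libraries, a variance trend and Benjamini-Hochberg adjustment over all regions. The limits were 0.01 for the adjusted p and 2-fold for the change, and no low values were filtered out. A fold change on this scale understates the change of low regions. Nothing in the labels pairs the libraries, and p-values measure the spread between these samples. On simulated data (200 of 66177 regions changed 4-fold, all others with the same mean in every group) 82% of opened and 38% of closed changes were recovered, with 1 false call. In the data 30.4% of regions were called, and with so few changed regions the adjustment is stricter. These shares therefore do not give the share of changes missed in the data.

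Alternatives used edgeR 4.0.16 and DESeq2 1.42.0 on the recovered reads. Windows were read with pysam 0.24.0 from the mm9 genome for the 65893 regions on named chromosomes. Genes were taken from the table's annotation (92.0% of regions had a symbol), and distances run to the start of the annotated transcript. Named were, for each key gene, the region nearest its start and the called region with the largest change and no overlap between groups, and the 5 largest increases and decreases. Regions shown for other list genes are the largest called change at that gene and were chosen after their values were seen. The members and gene lists were chosen with earlier results of these data known. Tables and figures were made with Python 3.11.15, pandas 2.3.3, numpy 2.4.6 and matplotlib 3.10.9. Some items of the lists are not reported here.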

Additional observations from a re-analysis of the deposited data

How the results depend on the processing

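The counts of regions opened from C GCB to C BMPC (7474) and of regions closed from C GCB to C BMPC (12636) moved by over 1.5 times in 1 alternative, a pseudocount of 5 RPPM, which gave 4009 and 6071 and by construction shrinks the change of low regions. The other alternatives with all 5 libraries gave 6453–9585 opened and 9871–14152 closed regions. Without 1 library at a time the counts were 5779–7113 opened and 9752–12663 closed. Quantile normalization gave 9585 opened and 9871 closed regions, with 50.7% of calls closed against 62.8%, and the cause was not tested. The median change over all regions was -0.04 under TMM scaling. Of 1691 values for the named regions under 19 alternatives, 1662 kept their direction and side of the limits, 16 lost the call, 13 gained it and 0 changed direction. Of 342 counts for the gene lists, 322 stayed within 1.5 times of the reported count and 20 did not. The median of the B cell transcription factors was -0.01 under quantile normalization, and that of the cell cycle genes was -0.01 without mitochondrial reads. No paired analysis was possible because the labels give the C GCB and C BMPC libraries no shared replicate numbers. C GCB had the fewest reads of the 5 libraries, and with 2 libraries its spread is the least certain. Low regions in C GCB rest on few reads.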
